A study of Homo sapiens with 8 samples.

Results

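The genes of cholesterol and fatty acid synthesis were followed in A549 cells after NFE2L2 siRNA. The members were chosen by name, with earlier results of these data known. They were 35 genes that encode the enzymes, carriers and regulators of both pathways, of 60291 genes with a count in each library. Counts of members set beside shares of all genes therefore describe these data and are no independent support. An identifier was matched for 34 of the 35, 20 in the sterol branch and 14 in the fatty acid branch. The exception was ACACA, a cytosolic acetyl-CoA carboxylase, for which no value is given. A549 cells are a human lung adenocarcinoma line in which KEAP1, the protein that marks NRF2 for degradation, carries a loss-of-function mutation, so that NRF2, the product of NFE2L2, is constitutively high. In each transfection 250000 cells received 5 nmol of siRNA with Lipofectamine RNAiMAX, and RNA was taken 48 h later. The NFE2L2 siRNA group held 3 libraries, one from each of 3 duplexes against NFE2L2. The control siRNA group held 4 libraries, from 2 control duplexes transfected 2 times each, and 1 mock library came from cells given Lipofectamine alone. Each NFE2L2 duplex was used once, so the spread of that group holds both the difference between duplexes and that between transfections. The tests took the 4 control libraries as separate, although they came from 2 duplexes and so were not fully independent. The p-values measure only the spread among these libraries.

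Cholesterol is built from acetyl-CoA through mevalonate, farnesyl diphosphate and squalene, and most enzymes of the route are transcribed under SREBP-2, the product of SREBF2. Fatty acids are built from cytosolic acetyl-CoA, then elongated, desaturated and joined to coenzyme A, and many of these genes respond to SREBP-1, the product of SREBF1. INSIG1 holds the SREBP precursors in the endoplasmic reticulum when sterols are plentiful. NRF2 is a transcription factor of the oxidative stress response that binds antioxidant response elements (AREs), and among its known targets are enzymes that make NADPH, the reductant that both lipid pathways consume.

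Reads counted on genes numbered between 35525141 and 41645410 in the 7 compared libraries and 39498992 in the mock library, and each member drew between 315 and 77307 reads per library. Levels are given as CPM, the counts on a gene scaled to 1000000 counts in the library, after TMM normalization. NFE2L2 was at 32.9, 51.9 and 29.6 CPM with NFE2L2 duplexes 1, 2 and 3 and at 107 to 117 CPM in the control libraries (log2 fold change −1.55, adjusted p = 0.000994). Its targets fell further, with log2 fold changes of −2.19 for NQO1, −2.52 for GCLM and −2.57 for TXNRD1. Summed epithelial markers lay between 8437 and 13051 CPM with NFE2L2 siRNA and between 8669 and 9281 CPM with control siRNA, and were at 10877 CPM in the mock library. The lung lineage markers NKX2-1, SFTPB and SFTPC were near 0, their sum never above 0.164 CPM. Summed blood markers stayed at or below 0.249 CPM. The endothelial markers were VWF and CDH5, since no identifier was matched for PECAM1. Their sum lay between 0.614 and 0.986 CPM with NFE2L2 siRNA and between 0.215 and 0.304 CPM with control siRNA. Summed fibroblast markers lay between 9.49 and 13.9 CPM with NFE2L2 siRNA and between 4.07 and 4.59 CPM with control siRNA, nearly all of it COL1A1, since DCN and LUM stayed at or below 0.254 CPM. The part of these markers in the results was not tested.

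Most members were somewhat higher with NFE2L2 siRNA, and no member passed an adjusted p of 0.01. All 34 matched members had enough reads to be tested. Of these, 28 had a positive log2 fold change and 6 a negative one, and their median was 0.31. Over all 17811 tested genes 9129 were higher and 8682 lower, with a median of 0.0082. In the sterol branch 19 of 20 were higher, with a median log2 fold change of 0.32, and in the fatty acid branch 9 of 14 were higher, with a median of 0.27. Across all genes the edgeR quasi-likelihood test called 491 (2.76%) at an adjusted p under 0.01, with 0 members among them. At an unadjusted p under 0.05 edgeR gave 18 higher members and 1 lower one, where 13.3% of all genes were higher and 11.7% lower. By the other tools, limma-voom called 0 members at an adjusted p under 0.01, and DESeq2 called 7, all higher. DESeq2 called 4.05% of all genes as increased and 3.32% as reduced at that threshold. The 7 were HMGCS1, SQLE, LSS, TM7SF2 and SREBF2 in the sterol branch and SCD and LPIN1 in the fatty acid branch. In bulk RNA, a change in the number of cells that express a gene and a change in RNA per cell cannot be told apart.

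At an adjusted p under 0.05, edgeR called 8 members as increased and 0 as reduced, where 4.63% of all genes were increased and 3.54% reduced. The 8 were 5 sterol genes and 3 fatty acid genes. Every NFE2L2 siRNA library lay above every control library for 13 members, 6 in the sterol branch and 7 in the fatty acid branch, an arrangement seen for 11.9% of all genes. For 1 member, RXRA, all NFE2L2 siRNA libraries lay under all control libraries, as for 11.4% of all genes. The count of 8 moved with the libraries used. Against control duplex 1 alone or control duplex 2 alone, 0 members were increased at an adjusted p under 0.05. With all control libraries kept but summed by control duplex, 0 members were increased at that threshold. Calls over all genes fell as well. At an adjusted p under 0.01, edgeR called 120, 59 and 78 genes in these fits in turn, against 491 in the main fit. The all-gene counts at 0.05 in these fits are not given, so the members cannot be set beside them. Without the first control duplex 1 library, 4 sterol and 2 fatty acid members were left, and without the second one 1 sterol and 0 fatty acid members. Without the first control duplex 2 library 1 sterol and 1 fatty acid member were left, and without the second one 2 sterol and 0 fatty acid members. Without NFE2L2 duplex 3, 9 sterol members and 1 fatty acid member were increased at an adjusted p under 0.05. Without NFE2L2 duplex 1, 5 sterol and 6 fatty acid members were increased, and without NFE2L2 duplex 2, 6 and 2. These counts hold increased members only. Without NFE2L2 duplex 2, RXRA was reduced at an adjusted p under 0.05 (edgeR, log2 fold change −0.465, adjusted p = 0.01655).

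**Figure D1:**
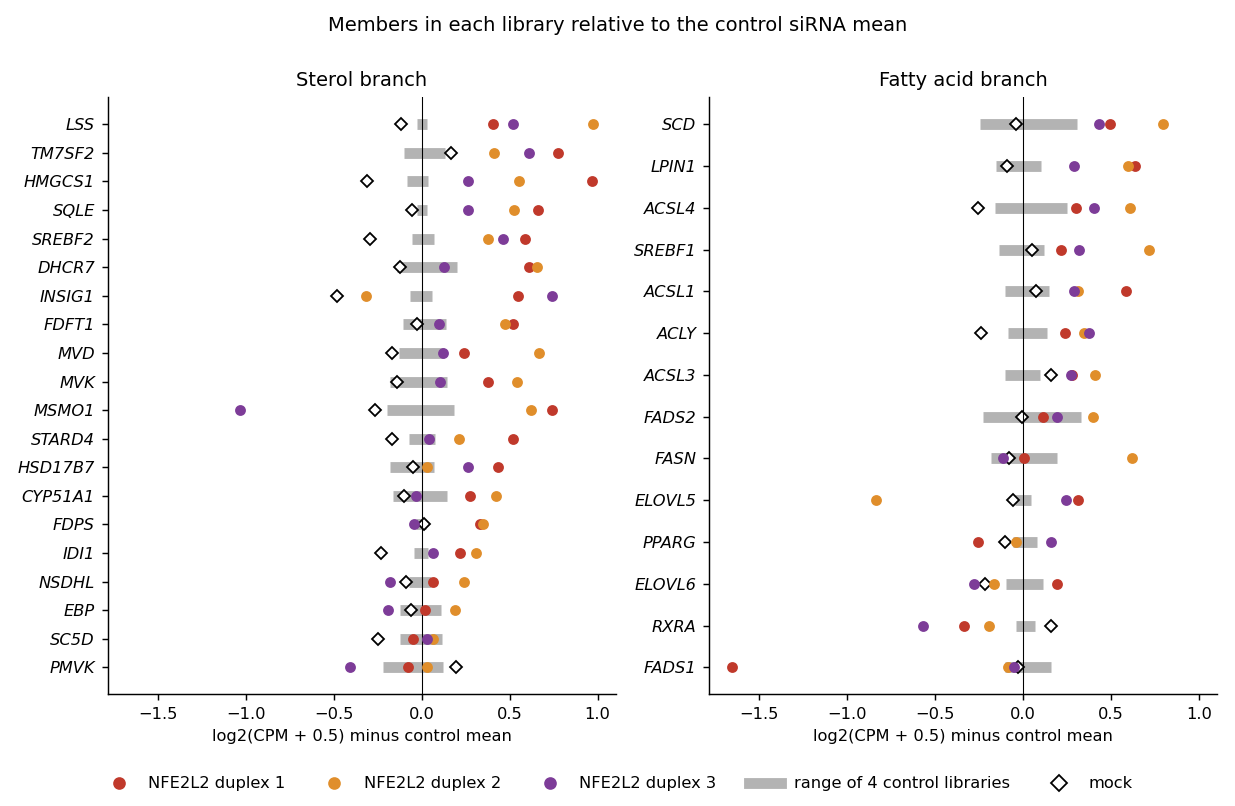
Each matched member in each library, as log2(CPM + 0.5) minus the mean of the 4 control libraries, with the sterol branch (20 genes) on the left and the fatty acid branch (14 genes) on the right, ordered by log2 fold change. Coloured points are the 3 NFE2L2 duplexes, grey bars span the 4 control libraries and diamonds are the mock library. Most points lie to the right of the grey bars, and single points far to the left stand at MSMO1 (duplex 3), ELOVL5 (duplex 2) and FADS1 (duplex 1).

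Among the regulators, SREBF2, which encodes the main activator of the sterol genes, came nearest to the threshold. Its level was 97.2, 83.7 and 89.0 CPM with NFE2L2 duplexes 1, 2 and 3, between 61.9 and 67.7 CPM in the control libraries and 52.4 CPM in the mock library. The groups did not overlap. SREBF2 had a log2 fold change of 0.48 with a standard error (SE) of 0.088 and an adjusted p of 0.0101, a ratio of means of 1.40, and the fold change stayed between 0.42 and 0.52 with each library left out in turn. SREBF1, the activator of fatty acid genes, was at 231, 327 and 248 CPM against 181 to 216 CPM (log2 fold change 0.43, adjusted p = 0.0668), again without overlap and with its highest value under duplex 2. INSIG1 was at 114, 62.2 and 130.3 CPM, against 74.1 to 81.0 CPM in the control libraries and 55.5 CPM in the mock library. The libraries of duplexes 1 and 3 lay above all controls and that of duplex 2 below all of them, so that its log2 fold change of 0.39 had an SE of 0.203 and an adjusted p of 0.263.

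The steps from acetyl-CoA to farnesyl diphosphate were covered by 6 members, of which 5 were higher, with a median log2 fold change of 0.29. HMGCS1, which forms HMG-CoA, was at 297, 222 and 182 CPM with NFE2L2 siRNA and 142.8 to 155.4 CPM with control siRNA, a mean of 234 ± 58.5 (SD, n = 3) against 152 ± 5.98 CPM (SD, n = 4). All 3 duplexes lay above all controls, yet duplex 1 stood 0.97 above the control mean on the log2 scale and duplex 3 only 0.26. In the fit this gave a log2 fold change of 0.62 (SE 0.145, adjusted p = 0.0295). IDI1, the isomerase of isopentenyl diphosphate, was also above all controls in each library, at 159, 169 and 142 CPM against 132 to 139.9 CPM, with a log2 fold change of 0.20 and an adjusted p of 0.186. The kinase MVK and the decarboxylase MVD had log2 fold changes of 0.35 and 0.36 with adjusted p-values of 0.132 and 0.145, and for both the duplex 3 library lay within the range of the controls. FDPS, which makes farnesyl diphosphate, was at 175 and 177 CPM with duplexes 1 and 2 but at 135 CPM with duplex 3, below the control range of 136 to 141 CPM. PMVK, the kinase that follows MVK, was the 1 sterol member with a negative value (log2 fold change −0.15, adjusted p = 0.54).

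The steps from farnesyl diphosphate to cholesterol were covered by 11 members, and all 11 had a log2 fold change above 0, from 0.012 to 0.66. LSS, which closes squalene epoxide into lanosterol, had the highest value of all members. It was at 47.4, 70.7 and 51.4 CPM with NFE2L2 duplexes 1, 2 and 3, against 35.1 to 36.5 CPM in the control libraries and 32.8 CPM in the mock library, and the groups were well apart (log2 fold change 0.66, SE 0.133, adjusted p = 0.0164). SQLE, the squalene epoxidase, was at 249, 227 and 189 CPM against 155 to 161 CPM, with the same order of duplexes as HMGCS1 (log2 fold change 0.49, SE 0.102, adjusted p = 0.0178). TM7SF2, a sterol reductase and the least abundant of the 8, was at 16.4, 12.7 and 14.6 CPM against 8.71 to 10.3 CPM (log2 fold change 0.63, SE 0.126, adjusted p = 0.0159). For both genes every NFE2L2 siRNA library was above every control library.

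DHCR7, the reductase that forms cholesterol itself, was at 133 and 137 CPM with duplexes 1 and 2 and at 94.7 CPM with duplex 3, the last within the control range of 78.7 to 99.8 CPM (log2 fold change 0.48, adjusted p = 0.0702). The same arrangement was seen for FDFT1, the squalene synthase, at a log2 fold change of 0.37 and an adjusted p of 0.0841. CYP51A1, the lanosterol demethylase, and HSD17B7, a ketosteroid reductase of the same route, had log2 fold changes of 0.24 and 0.26 with adjusted p-values of 0.316 and 0.247. HSD17B7 has a near copy, HSD17B7P2, which drew 2.15 to 4.75 CPM against 12.6 to 19.6 CPM for HSD17B7, so a small part of the reads of either could belong to the other. NSDHL, EBP and SC5D, which act between lanosterol and cholesterol, had log2 fold changes of 0.051, 0.012 and 0.012, each smaller than its SE, and each changed sign when single libraries were left out. STARD4, a cytosolic carrier of cholesterol, lay at a log2 fold change of 0.27 (adjusted p = 0.18).

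**Figure D2:**
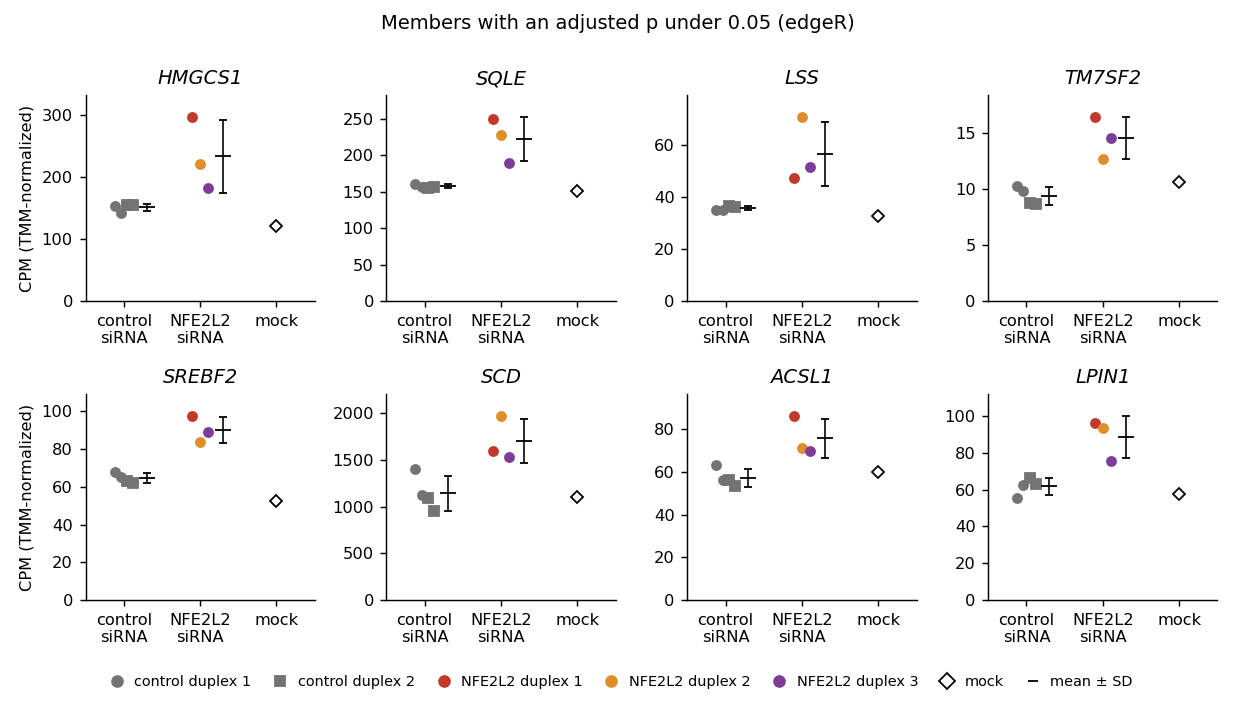
TMM-normalized CPM by library for the 8 members with an edgeR adjusted p under 0.05. Grey circles and squares are the libraries of control duplexes 1 and 2, coloured points the 3 NFE2L2 duplexes and diamonds the mock library, with the mean ± SD of each group beside it. In each panel the lowest NFE2L2 siRNA library lies above the highest control library, for SREBF2 at 83.7 against 67.7 CPM.

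In fatty acid synthesis and desaturation 4 of 7 members were higher, with a median log2 fold change of 0.20. ACLY, which splits citrate into cytosolic acetyl-CoA, was at 1601, 1724 and 1756 CPM with NFE2L2 siRNA, against 1279 to 1492 CPM with control siRNA and 1149.7 CPM in the mock library. The groups did not overlap (log2 fold change 0.32, adjusted p = 0.0595). SCD, which places the first double bond in saturated acyl chains, was at 1597, 1964 and 1527 CPM against 955 to 1399 CPM (log2 fold change 0.57, SE 0.140, adjusted p = 0.0367). The control libraries of SCD were themselves spread, with 1399 and 1125 CPM under control duplex 1 and 1097 and 955 CPM under control duplex 2. Its processed pseudogene SCDP1 was counted at 0.94 to 2.44 CPM. FASN, the fatty acid synthase, was at 562 CPM with duplex 2 but at 366 and 338 CPM with duplexes 1 and 3, inside the control range of 322 to 417 CPM, and its log2 fold change of 0.20 (adjusted p = 0.506) turned to −0.072 without duplex 2.

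FADS1 and FADS2 are desaturases of polyunsaturated fatty acids and lie together on chromosome 11 in GRCh37, FADS1 from 61567099 to 61596790 on the minus strand within the span of FADS2 from 61560452 to 61634826 on the plus strand. The counting used strand, which keeps their reads apart. FADS1 was at 178 CPM with NFE2L2 duplex 1 and at 530.4 and 542 CPM with duplexes 2 and 3, against 524 to 627 CPM in the control libraries, for a log2 fold change of −0.44 (SE 0.310, adjusted p = 0.42). FADS2 was at 618, 751 and 652 CPM against 486 to 717 CPM (log2 fold change 0.22, adjusted p = 0.375). FADS1 was far below its controls with 1 duplex while its neighbour was within its control range in that library. The elongases ELOVL5 and ELOVL6 had log2 fold changes of −0.0066 and −0.073. ELOVL5 was at 246 and 234 CPM with duplexes 1 and 3 and at 111 CPM with duplex 2, with control libraries at 191 to 204 CPM, so 2 duplexes were above all controls and 1 was far below.

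The acyl-CoA synthetases, which activate free fatty acids, were higher in all 3 duplexes. ACSL1 was at 85.8, 70.9 and 69.8 CPM against 53.1 to 63.2 CPM (log2 fold change 0.40, SE 0.106, adjusted p = 0.0459). ACSL3 was at 574, 629 and 573 CPM against 441 to 507 CPM, with 528 CPM in the mock library (log2 fold change 0.32, adjusted p = 0.056). ACSL4, which prefers arachidonate, was at 206, 255 and 221 CPM against 149 to 199 CPM (log2 fold change 0.43, adjusted p = 0.0588). For each of the 3 genes no NFE2L2 siRNA library overlapped the controls. LPIN1, a phosphatidate phosphatase that also acts as a coregulator, was at 96.2, 93.5 and 75.4 CPM against 55.2 to 66.1 CPM and likewise did not overlap (log2 fold change 0.52, SE 0.110, adjusted p = 0.0203). Of the nuclear receptors, RXRA was lower and PPARG was little changed. RXRA, the common partner of lipid-sensing receptors, was at 48.9, 53.8 and 41.4 CPM against 60.1 to 64.8 CPM in the control libraries and 69.0 CPM in the mock library (log2 fold change −0.36, SE 0.105, adjusted p = 0.0632). PPARG was at 24.2, 28.1 and 32.4 CPM against 27.8 to 30.7 CPM, with a log2 fold change of −0.038.

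The duplexes gave unequal values in the sterol branch. With duplexes 1 and 2 the median of the 20 sterol genes stood 0.42 and 0.39 above the control mean on the log2 scale, and with duplex 3 it stood 0.10 above. The duplex 1 library was above all controls for 17 sterol genes, the duplex 2 library for 16 and the duplex 3 library for 8, where 33.7%, 31.6% and 34% of all genes were above all controls in these libraries. The duplex 3 library was the lowest of the 3 for 14 of the 20, and for 29.3% of all genes. It was below all controls for 5 of the 20, under the 33.4% seen over all genes. In the fatty acid branch the medians were 0.23, 0.37 and 0.26 and each duplex was above all controls for 9 of the 14. With 1 library per duplex, a duplex and its transfection cannot be told apart, and no difference between duplexes was tested.

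For 8 members at least 1 NFE2L2 siRNA library was above all controls and at least 1 below all controls: FDPS, MSMO1, NSDHL, EBP, INSIG1, ELOVL5, ELOVL6 and PPARG. This arrangement was seen for 22.7% of all genes, close to the share of 8 in 34. MSMO1, the oxidase that removes methyl groups from lanosterol, had the widest such split, at 147 and 136 CPM with duplexes 1 and 2 and at 42.7 CPM with duplex 3. The control libraries of MSMO1 lay between 76.7 and 100.01 CPM, so duplex 3 stood at −1.03 from the control mean on the log2 scale while the others stood 0.74 and 0.62 above it. The fold change of 0.29 (log2) had an SE of 0.336 (adjusted p = 0.636), and it became 0.68 without duplex 3. MSMO1 (duplex 3), FADS1 (duplex 1), ELOVL5 (duplex 2) and INSIG1 (duplex 2) were chosen for display after their values were seen. The low values of ELOVL5 and INSIG1 came from the same duplex, and those of MSMO1 and FADS1 from duplexes 3 and 1.

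**Figure D3:**
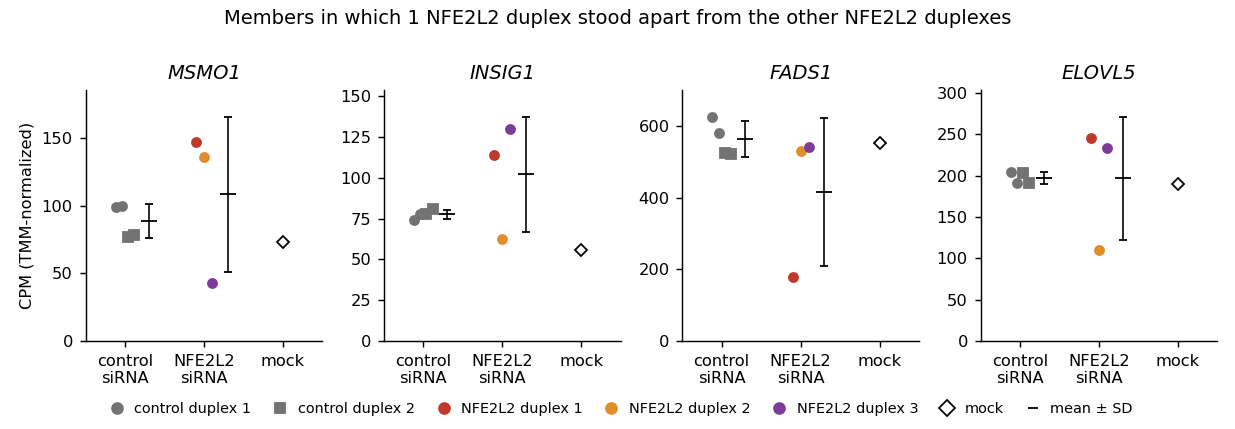
TMM-normalized CPM by library for MSMO1, INSIG1, FADS1 and ELOVL5, with symbols as in the plot of the 8 members. In each panel 1 coloured point lies far below the other NFE2L2 duplexes, for FADS1 at 178 CPM, and the SD bar of the NFE2L2 siRNA group is wide.

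The control duplexes were compared with each other as a measure of how far these genes differ without an NFE2L2 duplex. Between control duplex 2 and control duplex 1, with 2 libraries each, 9 members were higher and 25 lower, with a median log2 fold change of −0.13. Over all 17261 genes tested there, 8829 were higher and 8432 lower, with a median of 0.0062. A single member passed an adjusted p of 0.01, MSMO1, at 99.2 and 100.01 CPM under control duplex 1 and 76.7 and 78.3 CPM under control duplex 2 (log2 fold change −0.36, SE 0.058, adjusted p = 0.00488), where 3.28% of 17261 genes passed, a share close to 1 of 34. At an adjusted p under 0.05, 5 members were lower with control duplex 2, namely MVK, DHCR7, MSMO1, FADS2 and ACSL4, and 5.35% of genes were. These calls rested on few libraries, and a fit without 1 of them leaves 1 library for that control duplex. With a filter of at least 1 read, 0 members passed 0.01, and 4 genes over all did. In a fit with NFE2L2 siRNA and the 2 control duplexes as 3 groups, 0 members and 0 genes over all passed. The comparison with NFE2L2 siRNA shares these libraries, so the values stand side by side only. Against control duplex 1 alone the median log2 fold change of NFE2L2 siRNA was 0.26 in the sterol branch and 0.18 in the fatty acid branch, and against control duplex 2 alone it was 0.41 and 0.33. FADS2 had log2 fold changes of 0.012 and 0.45 against these controls in turn, and SREBF2 0.43 and 0.52.

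**Figure D4:**
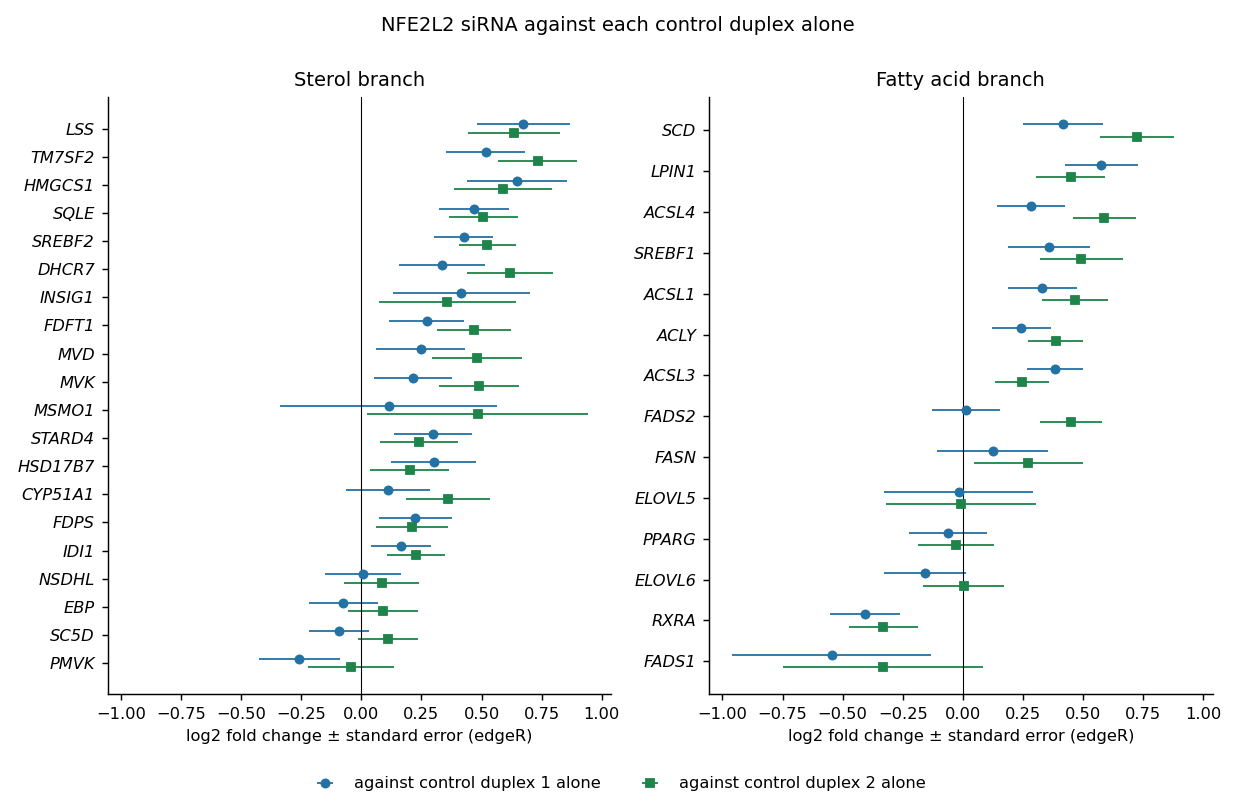
Log2 fold change ± standard error (edgeR) of NFE2L2 siRNA against the libraries of control duplex 1 alone (circles) and of control duplex 2 alone (squares) for each matched member, the sterol branch on the left. Most squares lie to the right of the circle of the same gene, for FADS2 at 0.45 against 0.012, and LSS and LPIN1 are among the genes where they do not.

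The mock library had no replicate and was not tested on its own. It lay below all 4 control siRNA libraries for 16 members, within their range for 14 and above it for 4, where 22.5% of all genes lay below. Its median distance from the control mean was −0.090 on the log2 scale over all members and −0.12 in the sterol branch, where 11 of 20 genes lay below all controls. INSIG1 at −0.48, HMGCS1 at −0.31 and SREBF2 at −0.29 were among the lowest. HMGCS1 and SREBF2 without any siRNA duplex were on the other side of the control libraries from all 3 NFE2L2 siRNA libraries, and with 1 mock library the absence of a duplex and the transfection itself cannot be told apart.

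Per kilobase of exon, ACLY and SCD were by far the most abundant members, at 255 and 212 CPM per kb in the control libraries (median, n = 4). FADS1, FADS2 and ELOVL5 followed at 54.1, 52.5 and 51.8 CPM per kb, values that the spread of the control libraries does not separate. EBP led the sterol branch at 39.97 CPM per kb, before FDPS at 37.4 and SQLE at 36.4 CPM per kb. The lowest levels were those of PPARG at 2.40 and TM7SF2 at 2.73 CPM per kb. This order depends on the length taken for each gene. With the longest transcript as length, FDPS at 69.0 CPM per kb lay above EBP at 62.8 and SQLE at 52.95 CPM per kb, FADS1 and FADS2 at 126.8 and 109 CPM per kb lay apart from ELOVL5 at 64.2 CPM per kb, and TM7SF2 at 4.45 CPM per kb lay below PPARG at 6.34 CPM per kb. The genes with the higher fold changes were spread over this order, from SCD in place 2 to LSS in place 28 and TM7SF2 in place 33 of 34.

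At an adjusted p under 0.01, edgeR called 2 of the other genes of these pathways, about as often as genes at large (2.76%). Among 24 further sterol genes (transporters, sensors and remaining enzymes), 23 were tested, 15 were higher and 8 lower, and ABCG1 was the 1 that passed. ABCG1, a cholesterol exporter induced by oxysterol receptors, was at 39.4, 42.3 and 28.9 CPM with NFE2L2 siRNA, against 12.9 to 17.9 CPM with control siRNA and 12.5 CPM in the mock library. Every NFE2L2 siRNA library was above every control (log2 fold change 1.21, SE 0.159, adjusted p = 0.00206). Among 44 further fatty acid genes, 41 were tested, 25 were higher and 16 lower, and ME1 was the 1 that passed. ME1, the cytosolic malic enzyme that yields NADPH and a known NRF2 target, was at 74.3, 93.7 and 63.3 CPM with NFE2L2 siRNA, against 173 to 192 CPM with control siRNA and 180.3 CPM in the mock library (log2 fold change −1.24, SE 0.131, adjusted p = 0.000548). With control duplex 1 alone, control duplex 2 alone or the control duplexes summed, ABCG1 and ME1 no longer passed 0.01, with adjusted p-values of 0.0391, 0.0420 and 0.0342 for ABCG1 and 0.0145, 0.0223 and 0.0182 for ME1 and log2 fold changes of 1.17 to 1.24 and −1.28 to −1.21. The median log2 fold changes were 0.17 for the further sterol genes and 0.037 for the further fatty acid genes. At an adjusted p under 0.05, 5 of the 23 further sterol genes were increased and 0 reduced. Of the 41 further fatty acid genes, 2 were increased and 3 reduced. Over all genes 4.63% were increased and 3.54% reduced. Every NFE2L2 siRNA library lay above every control library for 7 of the 23 and 7 of the 41, and for 11.9% of all genes. All lay below every control library for 1 and 4, and for 11.4% of all genes.

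Promoter windows of the members were searched for short sequence words, because the regulators named above bind such words. RefSeq (GRCh38.p14) windows of 300 bases, from 250 bases before each gene's start, were matched by symbol for 32 of the 35 listed members, 18 sterol and 14 fatty acid genes with ACACA among them, in a table of 35116 promoters. FDFT1, SQLE and FASN had no window. The words were searched on both strands: an ARE core, TGACNNNGC, a sterol regulatory element, TCACNCCAC, the NF-Y box CCAAT, whose factor acts beside SREBP, and the E-box CACGTG. Among the members no match to one word overlapped a match to another. The NF-Y box was in 15 of the 18 sterol promoters (83.3%) and 4 of the 14 fatty acid promoters (28.6%), compared with 34.6% of all promoters. The ARE core was in 1 sterol and 1 fatty acid promoter, EBP and RXRA, and in 13.3% of all. The sterol element was in 1 sterol promoter, SREBF2, and in 1.13% of all. The E-box was in 3 sterol promoters and 1 fatty acid promoter, and in 7.26% of all. A match is a description of the letters, and its absence says nothing of the factor.

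Shown are the windows of SREBF2 (chr22:41832855-41833154, plus strand), the member nearest to the threshold and the holder of the sterol element, of HMGCS1 (chr5:43313363-43313662, minus strand), LSS (chr21:46228725-46229024, minus strand) and SCD (chr10:100346983-100347282, plus strand), which were higher with each duplex and hold NF-Y boxes, and of RXRA (chr9:134326205-134326504, plus strand), which was lower with each duplex and holds the ARE core. They were picked after their values were seen, and other members with the same words did not change in the same way. EBP, the other holder of the ARE core, had a log2 fold change of 0.012. NSDHL, EBP and ELOVL5 also hold NF-Y boxes, with log2 fold changes of 0.051, 0.012 and −0.0066. A link between a word and a change was not tested. Each is written from 5′ to 3′ on the strand of the gene, with matches to the ARE core, the sterol element and the NF-Y box, read on either strand, in capitals.
SREBF2: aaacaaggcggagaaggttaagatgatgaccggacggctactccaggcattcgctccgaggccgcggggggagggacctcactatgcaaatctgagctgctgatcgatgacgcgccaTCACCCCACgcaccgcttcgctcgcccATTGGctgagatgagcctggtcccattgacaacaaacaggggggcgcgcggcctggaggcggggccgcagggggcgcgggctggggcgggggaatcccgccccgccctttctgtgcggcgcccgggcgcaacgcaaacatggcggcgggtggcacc
HMGCS1: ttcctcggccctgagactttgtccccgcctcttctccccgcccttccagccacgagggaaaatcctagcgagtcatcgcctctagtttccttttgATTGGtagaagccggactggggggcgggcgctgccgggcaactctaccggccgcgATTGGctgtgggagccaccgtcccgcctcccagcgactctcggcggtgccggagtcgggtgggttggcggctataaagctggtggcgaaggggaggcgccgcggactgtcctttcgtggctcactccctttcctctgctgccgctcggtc
LSS: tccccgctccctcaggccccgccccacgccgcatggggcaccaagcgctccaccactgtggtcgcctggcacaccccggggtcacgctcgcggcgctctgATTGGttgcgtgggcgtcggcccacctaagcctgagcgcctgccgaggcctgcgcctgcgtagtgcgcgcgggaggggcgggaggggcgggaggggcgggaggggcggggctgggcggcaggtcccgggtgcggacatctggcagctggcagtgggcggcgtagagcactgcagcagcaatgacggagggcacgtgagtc
SCD: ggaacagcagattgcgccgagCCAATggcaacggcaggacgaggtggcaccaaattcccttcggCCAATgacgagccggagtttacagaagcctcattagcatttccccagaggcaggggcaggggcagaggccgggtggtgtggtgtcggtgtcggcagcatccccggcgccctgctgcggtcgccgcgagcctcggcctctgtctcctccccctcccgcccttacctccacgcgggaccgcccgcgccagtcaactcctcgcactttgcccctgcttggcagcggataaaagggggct
RXRA: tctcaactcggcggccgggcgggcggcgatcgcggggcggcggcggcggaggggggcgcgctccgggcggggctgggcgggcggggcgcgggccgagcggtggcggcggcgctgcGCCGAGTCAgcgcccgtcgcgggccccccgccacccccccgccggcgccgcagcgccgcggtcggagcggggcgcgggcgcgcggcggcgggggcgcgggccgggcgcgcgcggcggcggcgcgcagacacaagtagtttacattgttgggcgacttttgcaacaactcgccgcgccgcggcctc
In SREBF2 the sterol element TCACCCCAC began 133 bases before the gene's start and an NF-Y box on the other strand began 106 bases before it. HMGCS1 held a pair of NF-Y boxes, LSS a single one and SCD a pair, and RXRA held the ARE core on the other strand, read as GCCGAGTCA, 135 bases before its start.

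**Figure D5:**
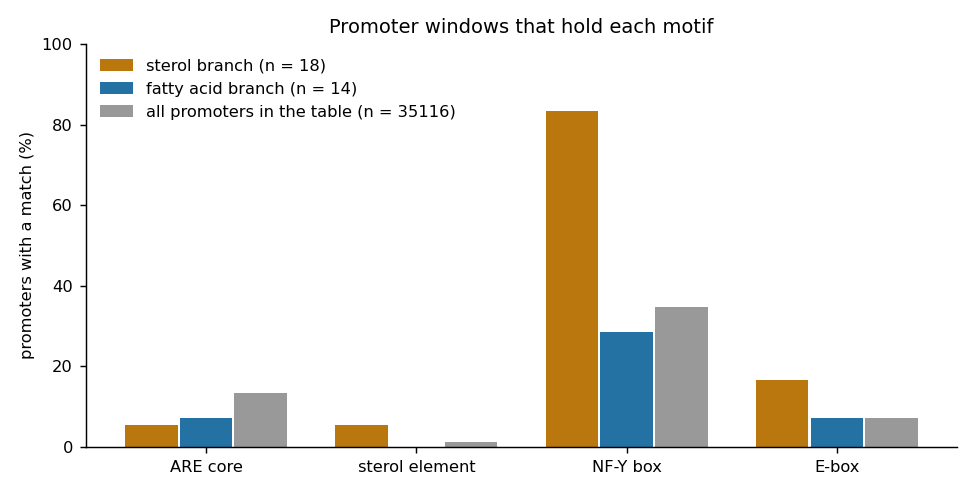
Share of promoter windows (%) that hold a match to each motif on either strand, for 18 sterol branch genes, 14 fatty acid branch genes and all 35116 promoters in the RefSeq table. The tall bar is the NF-Y box in the sterol branch at 83.3%, and the ARE core is in 1 promoter of each branch, compared with 13.3% of all promoters.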

How the data were processed

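Strand-specific total RNA-seq libraries (TruSeq Stranded with Ribo-Zero Gold) were made from 8 transfections of A549 cells. The authors aligned the reads to hg19 with HISAT 0.1.6 and counted them on GENCODE v19 genes with HTSeq 0.6.0 (reverse strand, strict intersection), versions being those in the submitters' processing notes. The authors deposited unnormalized counts, 1 value per gene and library. The classes of reads on no gene, 34.4% to 39.7% of each file, were left out here. Groups followed the sample titles.

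GENCODE v44 in its GRCh37 mapping gave symbols, lengths and positions, with 55538 of 60291 identifiers found. Genes that reached 10 reads in any of the 7 compared libraries were fitted with edgeR 4.0.16 in R 4.3.3 (TMM, factors 0.957 to 1.02, glmQLFit and glmQLFTest, two-sided, prior count 0.125), with p-values adjusted by Benjamini-Hochberg across the tested genes, a threshold of 0.01 and 0.05 as the alternative. The standard error is the log2 fold change over the root of the F statistic. Single libraries were set against the control mean as log2(CPM + 0.5). An exact permutation test over the 35 divisions of the libraries was meant for members past the threshold and was not needed, since none passed. As in the study's methods, the mock library stayed out of the main tests, and 1 alternative fit placed it among the controls.

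Every member may be named, those between 0.01 and 0.05 with fold change and adjusted p, and of the further pathway genes those past the threshold. The members and lists were chosen with earlier results of these data known. The tests were run on simulated counts of independent libraries with no difference between duplexes. Such counts do not show how the tests behave with repeated control duplexes. Alternatives were DESeq2 1.42.0, limma-voom (limma 3.58.1), other size factors, filters, control groups and thresholds, a robust fit, the longest transcript as gene length, and fits without 1 library at a time. Counting error alone is small at this depth, and the spread between transfections and duplexes sets the precision. The RefSeq promoter windows are in GRCh38.p14 and were matched by symbol only.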

Additional observations from a re-analysis of the deposited data

Results flagged for a closer look

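Among the 40 genes described by name, 2 had a control siRNA library apart from the other 3 by Dixon's criterion at the 95% level, and chance alone gives about 1 in 20, or 2 of 40. HMGCS1 was at 142.8 CPM in the second library of control duplex 1, with the others between 153.5 and 155.4 CPM (ratio of gap to range 0.846). HSD17B7 was at 12.6 CPM in the first library of control duplex 1, with the others between 14.9 and 15.1 CPM (ratio 0.915). Both low values lay away from the NFE2L2 siRNA libraries. Groups of 3 were not examined in this way, so the low values of MSMO1, FADS1, ELOVL5 and INSIG1 under single NFE2L2 duplexes carry no such mark.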

How the results depend on the processing

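Against the 491 genes past 0.01, the count was 1314 with DESeq2, 1019 with a filter of at least 1 read, 772 with the mock library among the controls, 1456 at 0.05, 120 with control duplex 1 alone, 59 with control duplex 2 alone and 78 with the libraries summed by control duplex, and between 163 (without the second control duplex 1 library) and 915 (without NFE2L2 duplex 2) with single libraries left out. Sterol members past the threshold, 0 as reported, numbered 5 with DESeq2, 5 with at least 1 read, 1 with filterByExpr, 2 with library size alone, 4 with the mock library added, 1 with the robust fit and 5 at 0.05, and 0 to 3 with single libraries left out. Fatty acid members, also 0 as reported, numbered 2 with DESeq2, 2 with at least 1 read, 1 with the mock library added and 3 at 0.05. Sterol members increased at 0.05, 5 as reported, numbered 0 with control duplex 1 alone and 0 with control duplex 2 alone, fits with fewer control libraries. They numbered 0 with the duplexes summed, a fit that keeps all control libraries as 1 sum per control duplex. With single libraries left out they numbered 1 to 9. Fatty acid members increased at 0.05, 3 as reported, numbered 0 in each of those 3 fits, 7 with DESeq2, 5 with at least 1 read, 7 with library size alone, 5 with limma-voom, 7 with the mock library added and 0 to 6 with single libraries left out. The median log2 fold change of the fatty acid branch was 0.18 against control duplex 1 alone, and with single libraries left out the medians were 0.26 to 0.42 (sterol) and 0.22 to 0.32 (fatty acid).

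The further sterol genes past 0.01, 1 as reported, numbered 5 with DESeq2, 3 with at least 1 read, 2 with filterByExpr, 2 with library size alone, 3 with the mock library added, 5 at 0.05, 0 with control duplex 2 alone and 0 with the duplexes summed, and 1 to 2 with single libraries left out; ABCG1 itself also missed 0.01 against control duplex 1 alone. The further fatty acid genes, 1 as reported, numbered 4 with DESeq2, 2 with at least 1 read, 2 with library size alone, 3 with the mock library added, 5 at 0.05, 0 with either control duplex alone or with the duplexes summed, and 1 to 2 with single libraries left out. Between the control duplexes, the 566 genes became 4 with at least 1 read, 0 in a fit of 3 groups and 0 to 2056 with single libraries left out, and the 1 member became 2 with DESeq2, 0 with at least 1 read, 0 in the fit of 3 groups and 0 to 6 with single libraries left out.

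Of 34 members 7 changed sign under some alternative. EBP was −0.075 and SC5D −0.092 against control duplex 1 alone, ELOVL5 0.024 with library size alone and 0.0052 with the mock library added, and ELOVL6 0.0035 against control duplex 2 alone. With single libraries left out, the log2 fold change ran from −0.068 to 0.16 for NSDHL, −0.099 to 0.11 for EBP, −0.041 to 0.051 for SC5D, −0.072 to 0.34 for FASN, −0.20 to 0.27 for ELOVL5, −0.23 to 0.024 for ELOVL6 and −0.15 to 0.063 for PPARG. The causes of these differences were not tested. The other 27 members kept their sign in all 18 fits. With the longest transcript as length, ACLY and SCD remained in places 1 and 2 and TM7SF2 took place 34. No paired analysis was possible because duplex and repeat numbers mark different duplexes and transfections in each group and so pair no samples.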
